A study of Mus musculus with 6 samples.

Results

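The matrix metalloproteinases, the ADAMTS proteases with their ADAMTS-like relatives, and the tissue inhibitors of metalloproteinases were followed in fetal mouse aortas. Members were chosen by the gene name that the array design gives a probe: Mmp with a number, Adamts with a number, Adamtsl with a number, or Timp1 to Timp4. This gave 51 genes read by 74 probes, of 34797 gene names on 55681 non-control probes. There were 23 Mmp, 19 Adamts, 5 Adamtsl and 4 Timp genes, and 35 of the 51 were bright enough to be tested.

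RNA of aortic arteries was hybridised to 1-colour Agilent expression arrays, 3 from Nod1 +/- and 3 from Nod1 -/- fetuses of C57BL/6 mice. Dams of both groups were Nod1 -/-, had been crossed to Nod1 +/- sires, and received 500 µg of FK565, a synthetic ligand of the peptidoglycan sensor NOD1, under the skin at E18.5, shortly before birth. Vessels were taken 6 h later. Every array therefore carries ligand exposure, the fetal genotype is the only labelled difference, and arrays of untreated fetuses were not analysed here. The submitters call the fetuses littermates. How many fetuses or litters an array stands for, and which part of Nod1 was deleted, are not given in the sources used here, so p-values measure only the spread between these samples.

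Matrix metalloproteinases are zinc-dependent enzymes, mostly secreted as inactive precursors, that cut collagens, elastin, proteoglycans and many signalling proteins. ADAMTS enzymes are secreted relatives that process procollagen, cut large proteoglycans or trim blood-clotting and cartilage proteins, and ADAMTS-like proteins share their outer domains but have no protease. TIMPs bind the active site of these enzymes and block it, so that the balance of enzyme and inhibitor sets how much matrix a vessel wall loses.

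Signal was well above background, by the scanner software's own test, for 48.6% to 54.7% of probes on the Nod1 +/- arrays and 53.7% to 58.3% on the Nod1 -/- arrays. Levels are log2 signal minus the array's 75th percentile, and arrays are listed in replicate order. Differences are Nod1 +/- minus Nod1 -/-, with a standard error (SE) and limma's p adjusted over all 21478 genes tested, and the threshold was 0.05. Levels of different probes are not comparable with each other. The Nod1 probe read 3.38 ± 0.35 (SD, n = 3) in Nod1 +/- and 3.25 ± 0.09 (SD, n = 3) in Nod1 -/- aortas (adjusted p = 0.648), and may lie outside the deleted part, so it does not check the labels. Smooth-muscle markers, which fit the labelled vessel, were well above background on every array, with a mean level of 4.62 to 5.04. Single markers ran from Lmod1, at -1.56 in both genotypes, to Acta2, at 8.80 and 8.79. Of the 7 markers 0 changed, against 18.7% of all genes. Skeletal-muscle markers averaged 6.51 on Nod1 +/- replicate 1 and 1.15 to 1.76 on the other 5 arrays. In whole vessels, fewer cells of a type and less RNA per cell cannot be told apart.

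The enzymes Mmp9, Mmp8 and Mmp3 and the inhibitor Timp1 were higher in Nod1 +/- aortas, and Adamts18 and Adamtsl1 were lower. Of the 35 tested members 10 passed the threshold (28.6%), against 18.7% of all genes tested. The 6 higher members were 17.1% of those tested, against 7.66% of all genes, and the 4 lower members were 11.4%, against 11.0%. The higher ones were Mmp3, Mmp8, Mmp9, Adamts7, Adamts8 and Timp1, and the lower ones were Adamts5, Adamts16, Adamts18 and Adamtsl1. Mmp9 passed the filter on dim probes through the Nod1 +/- arrays alone and therefore had to differ, so it adds no support to the count of 6. The median difference over the tested members was -0.03, against -0.10 over all genes. The 3 arrays of each genotype did not overlap for 19 members (54.3%), against 42.4% of all genes. Of these, 10 were higher in Nod1 +/- (all genes, 16.3%) and 9 lower (26.1%). By family, 3 of 10 tested Mmp genes, 5 of 16 Adamts genes, 1 of 5 Adamtsl genes and 1 of 4 Timp genes changed.

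**Figure D1:**
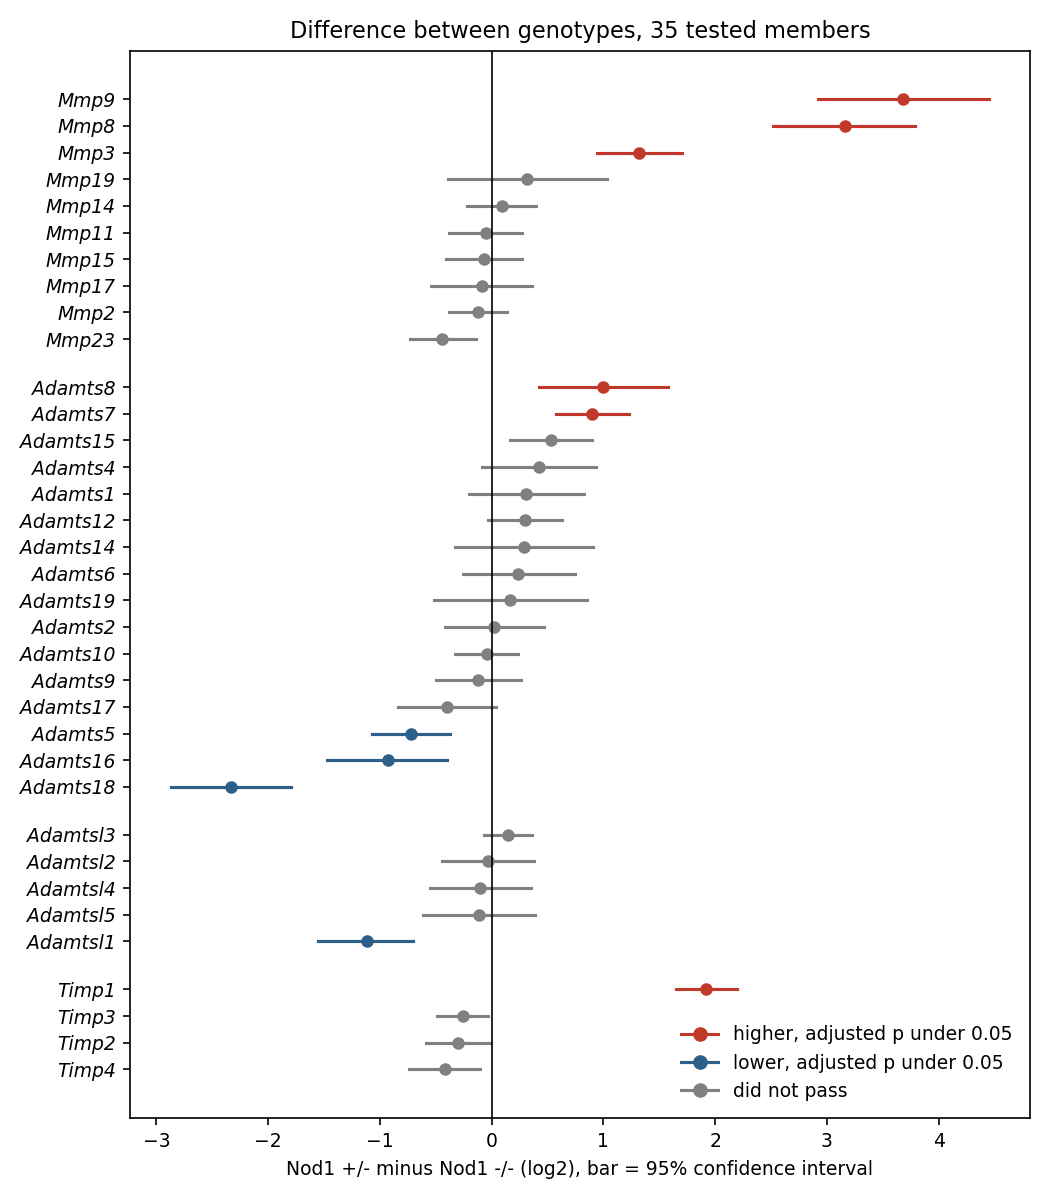
Difference between genotypes (horizontal axis, log2, Nod1 +/- minus Nod1 -/-, 3 arrays each) for the 35 tested members, grouped by family from Mmp at the top to Timp at the bottom, with bars for the 95% confidence interval. Mmp9, Mmp8 and Timp1 lie farthest to the right at 3.68, 3.16 and 1.92 and Adamts18 farthest to the left at -2.33, while most other members lie close to 0; the Nod1 -/- arrays were not well above background for Mmp9, so its value is not exact.

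Among the collagenases, which cut the triple helix of fibrillar collagen, Mmp8 was measured on all arrays. Mmp8, the collagenase stored in neutrophil granules, lies on chromosome 9 (its probe at 7568238 to 7568297 of mm9, plus strand). Its level was -0.32, 0.56 and -0.33 on the Nod1 +/- arrays and -3.01, -3.34 and -3.20 on the Nod1 -/- arrays. The genotypes were far apart, with the dimmest Nod1 +/- array well over the brightest Nod1 -/- array. The difference was 3.16 (SE 0.26), or 8.91-fold (adjusted p = 0.00172). With normexp background correction, which adds an offset to all signals, it was 2.05 (adjusted p = 0.000836).

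Mmp13, the collagenase of cartilage and bone, was too dim to be tested. It read -3.73, -3.67 and -3.71 on the Nod1 +/- arrays and -6.86, -6.88 and -6.25 on the Nod1 -/- arrays, with 2 of the former and 0 of the latter well above background. Set against the lowest signal that counted as above background, the mean of the Nod1 +/- arrays was 1.72-fold higher. That mean takes in a Nod1 +/- array that was itself not well above background, so 1.72-fold is not a firm lower limit. In a fit without the filter on dim probes Mmp13 passed (adjusted p = 0.00488). Mmp1a, an interstitial collagenase of rodents, was bright on Nod1 +/- replicate 1 alone, at -0.68, and lay between -6.62 and -6.01 on the other 5. Its neighbour Mmp1b was not well above background on any array.

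The gelatinases, which digest denatured collagen and basement-membrane collagen, were both tested. Mmp9, the inducible gelatinase of myeloid cells and inflamed vessels, lies on chromosome 2 (164780620 to 164780679 of mm9, plus strand). It read -1.99, -1.10 and -1.96 on the Nod1 +/- arrays and -4.96, -5.78 and -5.35 on the Nod1 -/- arrays. All 3 Nod1 +/- arrays were well above background and 0 of 3 Nod1 -/- arrays were. The measured difference of 3.68 (SE 0.31; adjusted p = 0.00185) therefore has a floor on its lower side, and the bound for Mmp9 was at least 7-fold in favour of Nod1 +/-, on the signals as processed by the scanner software. With normexp background correction the difference was 1.41 (adjusted p = 0.00200), which is below that bound, so the size depends on how background is treated. Mmp2, the constitutive gelatinase of stromal and smooth-muscle cells, read 4.39, 4.47 and 4.31 against 4.38, 4.61 and 4.53. Its genotypes overlapped, and the difference was -0.12 (95% confidence interval -0.38 to 0.14; adjusted p = 0.462).

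The stromelysins cut proteoglycans, laminin and other matrix proteins and activate the precursors of other Mmp enzymes. Mmp3, stromelysin 1, lies on chromosome 9 (7455751 to 7455810 of mm9, plus strand) and read -1.58, -1.52 and -1.31 against -2.52, -2.98 and -2.90. Every Nod1 +/- array was brighter than every Nod1 -/- array, by 1.32 on average (SE 0.16), or 2.50-fold (adjusted p = 0.00463), and by 0.78 with normexp background correction (adjusted p = 0.00419). Mmp10, stromelysin 2, was not well above background on any array.

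**Figure D2:**
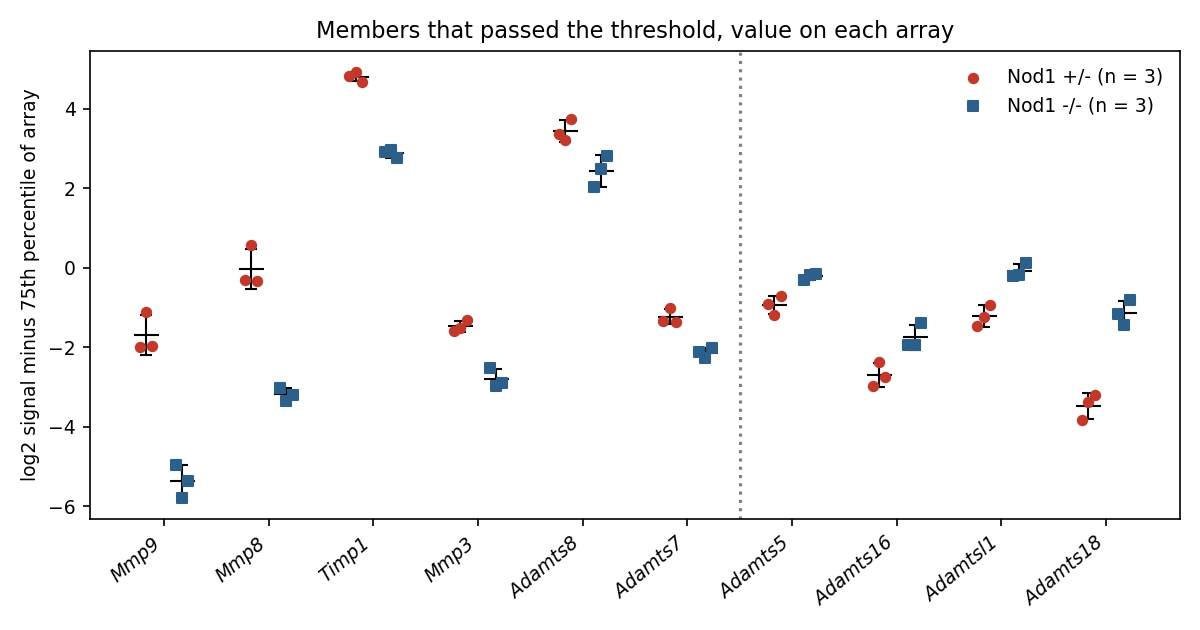
Level on each array (vertical axis, log2 signal minus the array's 75th percentile) of the 10 members that passed the threshold, ordered by the difference, with points for arrays and bars for the mean ± SD of 3 arrays. The 6 genes left of the dotted line are higher in Nod1 +/- and the 4 right of it lower, and in no gene do the genotypes overlap; heights are comparable within a gene, not between genes.

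Neutrophil markers moved in the same direction as Mmp8 and Mmp9. Of 13 such markers 8 were higher in Nod1 +/- aortas and 0 lower, against 7.66% and 11.0% of all genes. Their mean level was 2.03 to 2.57 on the Nod1 +/- arrays and 0.10 to 0.34 on the Nod1 -/- arrays. Those that passed were S100a8, S100a9, Retnlg, Stfa1, Stfa2, Ngp, Ltf and Cxcr2. Cxcr2, at least 12.4-fold higher, was well above background on the Nod1 +/- arrays alone and entered the test through them, so it had to differ; the other 7 were measured on all 6 arrays. Elane and Mpo, proteins of the primary granules, were measured on all arrays and differed by 0.22 (adjusted p = 0.499) and 0.29 (adjusted p = 0.705), and Ly6g, Camp and Csf3r did not pass either. Macrophage markers did not move in that direction, with 0 of 11 higher and 2 lower (mean level 1.59 to 1.92 against 1.48 to 2.43). The part of neutrophil RNA in the Mmp8 and Mmp9 differences was not tested.

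The other secreted Mmp genes held 8 members, of which 2 were tested. Mmp11, which is made by stromal cells during tissue remodelling, differed by -0.05, and Mmp19, which is made by vessel-wall and blood cells, by 0.32 (adjusted p = 0.794 and 0.470). In both genes the genotypes overlapped. Mmp12, the macrophage elastase, read -2.42 on Nod1 +/- replicate 1 by 1 probe and -6.58 to -6.00 on the other 5 arrays, while its second probe was at -5.61 on that array and not above background. That array is the one rich in skeletal-muscle transcripts, as for Mmp1a, and the part of this in both readings was not tested. Mmp7, Mmp20, Mmp21, Mmp27 and Mmp28 were not well above background on any array.

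A stretch of 415 kb on chromosome 9 (7282762 to 7697700 of mm9) holds the probes of 10 Mmp genes side by side: Mmp13, Mmp12, Mmp1b, Mmp3, Mmp1a, Mmp10, Mmp8, Mmp27, Mmp20 and Mmp7. The 2 that were tested, Mmp3 and Mmp8, were both higher in Nod1 +/- aortas, while 5 were not well above background on any array. Next to each other, Mmp8 was well above background on all 6 arrays and Mmp27 on 0.

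**Figure D3:**
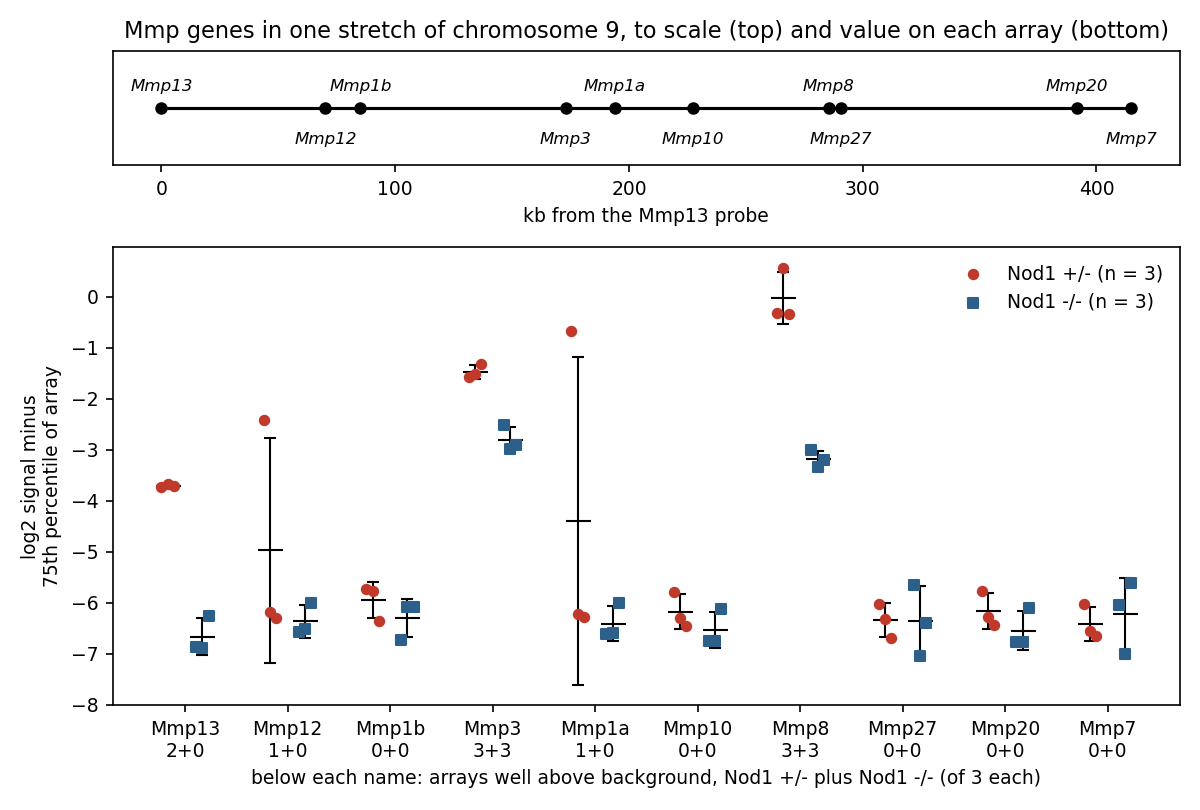
Top, the first base of each probe along the chromosome 9 stretch, in kb from the Mmp13 probe; bottom, the level on each array (log2 signal minus the array's 75th percentile) in the same order, with points for arrays and bars for the mean ± SD of 3 arrays, and under each name the number of arrays well above background per genotype. Mmp3 and Mmp8 are measured on all 6 arrays and higher in Nod1 +/-, Mmp13 is measured on 2 Nod1 +/- arrays, and Mmp1a and Mmp12 stand high on Nod1 +/- replicate 1 alone.

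Promoters in this stretch were read for the AP-1 element, the letters TGACTCA or, on the other strand, TGAGTCA, which bind Fos and Jun factors and are long known from Mmp promoters. RefSeq's promoter table for GRCm38.p6, a later build than that of the probes, held 36 of the 51 members. In the 250 bases before the start the element occurred in 7 of these 36 (19.4%), against 1395 of 27025 genes in the table (5.16%). All 7 lay in the chromosome 9 stretch, which holds 10 of the 36, and 0 of the other 26 members had it. The consensus of NF-kB, the factor that NOD1 signals to, was found in the same window of Mmp25, against 4.46% of all genes. It was found in no other of the 36 members. Only 3 of the 6 higher members (Mmp3, Mmp8 and Timp1) and 1 of the 4 lower ones (Adamts18) had an entry. Mmp9, Adamts7 and Adamts8 were therefore not searched for either motif. A match is a description of letters and does not show a bound site, and the lack of a match says nothing about the factor. The 100 bases before the start are given below for Mmp3, for its dimmer neighbours Mmp13 and Mmp10, for Mmp8, and for Timp1 on chromosome X, to show which of the genes that moved or stayed dim carry the element. Capitals mark the AP-1 element, and each strand is that of the gene.
Mmp3, chr9:7445722-7445821, plus strand: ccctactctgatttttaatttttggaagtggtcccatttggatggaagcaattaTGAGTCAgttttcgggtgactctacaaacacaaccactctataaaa
Mmp13, chr9:7272414-7272513, plus strand: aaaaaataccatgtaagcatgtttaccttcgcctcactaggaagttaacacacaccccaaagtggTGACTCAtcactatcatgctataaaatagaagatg
Mmp10, chr9:7502242-7502341, plus strand: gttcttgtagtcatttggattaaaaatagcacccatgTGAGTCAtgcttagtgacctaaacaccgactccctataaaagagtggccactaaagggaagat
Mmp8, chr9:7558329-7558428, plus strand: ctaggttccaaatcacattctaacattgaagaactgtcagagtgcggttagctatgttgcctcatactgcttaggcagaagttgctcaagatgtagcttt
Timp1, chrX:20870066-20870165, plus strand: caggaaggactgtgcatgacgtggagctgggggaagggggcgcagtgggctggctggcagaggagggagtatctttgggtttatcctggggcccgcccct

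The element began 46 bases before the start in Mmp3, 35 in Mmp13 and 63 in Mmp10. It was found neither in Mmp8, which had the larger measured difference of the tested pair, nor in Timp1. Mmp10, Mmp7 and Mmp1b carry it, and 0 of 6 arrays read them well above background.

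Of the 7 membrane-anchored Mmp genes, whose enzymes act at the cell surface, 4 were tested and 0 passed the threshold, against 18.7% of all genes. Mmp14, the main activator of the Mmp2 precursor, differed by 0.09 (95% confidence interval -0.22 to 0.40), Mmp15 by -0.07 and Mmp17 by -0.09. Mmp23, an atypical member held in the membrane by its propeptide, read 4.22, 4.55 and 4.27 against 4.79, 4.86 and 4.70. Its genotypes did not overlap, but the difference of -0.44 (SE 0.12) missed the threshold (adjusted p = 0.0549). Mmp25, the membrane enzyme of leukocytes, read -4.91, -3.68 and -4.72 against -6.78, -6.75 and -6.12 and was well above background on 1 Nod1 +/- array. Its bound came to 1.04-fold in favour of Nod1 +/-. The bound averages in Nod1 +/- arrays that were themselves not well above background, so it is not a firm lower limit. In the fit without a filter Mmp25 passed (adjusted p = 0.0428). Mmp16 was well above background on 2 Nod1 -/- arrays and 0 Nod1 +/- arrays. It read -3.76, -4.11 and -4.30 against -3.46, -4.52 and -3.38, so the genotypes overlapped, and without a filter it did not pass (adjusted p = 0.649). Mmp24 was not well above background on any array.

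The ADAMTS enzymes that cut large proteoglycans such as versican and aggrecan had 1 higher and 1 lower of 6 tested, against 18.7% of all genes called, and the lower one, Adamts5, rests on 1 of its probes. Adamts8, a protease with anti-angiogenic activity, lies on chromosome 9 (30770384 to 30770443 of mm9, plus strand). It read 3.36, 3.21 and 3.75 against 2.02, 2.48 and 2.80, groups that did not overlap. The difference was 1.0 (SE 0.24), or 2.0-fold (adjusted p = 0.0359). A second Adamts8 probe was higher by 0.50 and did not pass (adjusted p over all probes, 0.112). The call was lost when any 1 of the Nod1 +/- arrays, or Nod1 -/- replicate 1 or 2, was left out (adjusted p = 0.0618 to 0.107) and also when slide row was made a block (difference 0.63; adjusted p = 0.263).

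Adamts5, a major aggrecanase of cartilage that also clears versican in developing heart valves, lies on chromosome 16 (85858402 to 85858461 of mm9, minus strand). It read -0.91, -1.18 and -0.71 against -0.31, -0.17 and -0.15, without overlap. The difference was -0.72 (SE 0.14; adjusted p = 0.0221), but a second probe read 0.25 the other way (adjusted p over all probes, 0.164), and the mean of both probes gave -0.23 (adjusted p = 0.175). The direction of Adamts5 thus depends on the probe. The call was also lost without Nod1 +/- replicate 1 or 2 or any 1 of the Nod1 -/- arrays (adjusted p = 0.0516 to 0.0837), or when slide row was made a block (adjusted p = 0.117).

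Adamts15, a versican-cleaving protease, read 4.03, 4.03 and 4.23 against 3.29, 3.62 and 3.78, and its difference of 0.53 (SE 0.15) did not pass (adjusted p = 0.0591). Adamts4, an aggrecanase induced by inflammatory cytokines, read 2.34, 2.35 and 3.05 against 2.22, 2.07 and 2.18. With this probe the higher mean came mostly from Nod1 +/- replicate 3, and the difference was 0.42 (SE 0.21; adjusted p = 0.202). A second Adamts4 probe was higher on every Nod1 +/- array, by 0.40 on average, and did not pass (adjusted p over all probes, 0.0758). Adamts1 and Adamts9, both versican-cleaving enzymes, overlapped between genotypes by the probes used, at 0.31 and -0.12 (adjusted p = 0.329 and 0.608). On a second Adamts9 probe every Nod1 +/- array was below every Nod1 -/- array. That difference of -0.33 did not pass (adjusted p over all probes, 0.101). Adamts20 was not well above background on any array.

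The procollagen N-proteinases, which trim the amino end of fibrillar procollagens, had 0 of 2 tested genes past the threshold, against 18.7% of all genes. Adamts2 differed by 0.02 (95% confidence interval -0.42 to 0.47) and Adamts14 by 0.29 (-0.33 to 0.91), and Adamts3 was well above background on 1 Nod1 -/- array. Adamts7, which cuts cartilage oligomeric matrix protein (COMP) and acts in vascular smooth muscle, was among the higher members. Its probe lies on chromosome 9 (90094878 to 90094937 of mm9, plus strand), outside the Mmp stretch, and read -1.33, -1.02 and -1.36 against -2.13, -2.28 and -2.01. The arrays of each genotype lay close together and apart from the other genotype. The difference was 0.90 (SE 0.14), or 1.87-fold (adjusted p = 0.00931), and it missed the threshold when slide row was made a block (0.78; adjusted p = 0.0921).

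Adamts12, the closest relative of Adamts7, read 0.06, -0.14 and -0.10 against -0.57, -0.34 and -0.16. The genotypes barely missed overlapping (-0.14 against -0.16), and the difference of 0.30 (SE 0.14) did not pass (adjusted p = 0.168). By a second Adamts12 probe the difference was 0.44 and did not pass either (adjusted p over all probes, 0.105). Adamts13, the protease that cuts von Willebrand factor, was not well above background on any array. Col4a1 and Comp, listed among the substrates of these families, had the smallest p of that list, at 0.46 (adjusted p = 0.0898) and -0.71 (adjusted p = 0.0905). Of 12 tested substrates 0 changed, against 18.7% of all genes.

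Adamts18, which is known from eye, lung and kidney development, was the lowest member in Nod1 +/- aortas. Its probe lies on chromosome 8 (116222720 to 116222779 of mm9, minus strand). It read -3.83, -3.38 and -3.20 on the Nod1 +/- arrays, 2 of them well above background, and -1.16, -1.43 and -0.82 on the Nod1 -/- arrays. The difference was -2.33 (SE 0.22), or 5.04-fold lower (adjusted p = 0.00240), and -1.25 with normexp background correction (adjusted p = 0.00137). A second probe (116368682 to 116368741) was well above background on 4 of the 6 arrays and was also lower in Nod1 +/- (adjusted p over all probes, 0.00392), with no exact size because of the dim arrays.

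Adamts16, which is expressed in gonad and kidney, lies on chromosome 13 (70867148 to 70867207 of mm9, minus strand) and read -2.96, -2.36 and -2.74 against -1.93, -1.93 and -1.38. The Nod1 +/- arrays were all dimmer, by 0.93 on average (difference -0.93, SE 0.22; adjusted p = 0.0351). This call was lost without Nod1 +/- replicate 1 or 3 or any 1 of the Nod1 -/- arrays (adjusted p = 0.0667 to 0.0944), or when slide row was made a block (-1.30; adjusted p = 0.0581). Adamts17, which acts on fibrillin microfibrils, read 0.38, 0.43 and 0.50 against 0.57, 0.70 and 1.22, a difference of -0.40 that did not pass (SE 0.18; adjusted p = 0.174). Adamts6, Adamts10 and Adamts19 overlapped between genotypes, at 0.24, -0.04 and 0.16. A second Adamts10 probe was lower in Nod1 +/- (difference -0.59; adjusted p over all probes, 0.0326).

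Of the 5 ADAMTS-like genes 1, Adamtsl1 (punctin), changed, against 18.7% of all genes. Its probe lies on chromosome 4 (86074196 to 86074255 of mm9, plus strand) and read -1.47, -1.23 and -0.93 against -0.21, -0.18 and 0.13. No Nod1 +/- array reached the dimmest Nod1 -/- array. The difference was -1.12 (SE 0.17), or 2.18-fold lower (adjusted p = 0.0103). The other kept Adamtsl1 probes differed by -0.83 and -0.80 and did not pass, and the mean of all 3 probes missed the threshold (-0.92; adjusted p = 0.0656). Adamtsl3 was steady within each genotype, at -2.97, -2.98 and -3.01 against -3.17, -3.06 and -3.17, and its small difference of 0.15 did not pass (adjusted p = 0.275). Adamtsl2 and Adamtsl4, both linked to fibrillin microfibrils, differed by -0.03 and -0.10. Adamtsl5, another microfibril protein, gave -0.11 by the probe used and 0.81 by its second probe (adjusted p over all probes, 0.0454), so its direction depends on the probe.

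Some markers of cartilage and of Schwann cells were lower, as were Adamts18, Adamts16, Adamts5 and Adamtsl1. Over all genes tested, 11.0% were lower and 7.66% higher. Of 6 tested cartilage markers 3 were lower and 0 higher, with a mean level of -1.79 to -1.30 against -0.90 to -0.57. Acan was the 1 cartilage marker with a difference above 0 (0.06, adjusted p = 0.917). Of 4 tested Schwann-cell markers 2 were lower and 0 higher, at -0.25 to 0.10 against 0.79 to 1.41. Sox10 was the 1 Schwann-cell marker with a difference above 0 (0.33, adjusted p = 0.295). Among fibroblast markers 2 of 6 and among endothelial markers 3 of 8 were lower, with mean levels of 5.78 to 5.86 against 6.01 to 6.14 and of 2.15 to 2.40 against 2.68 to 2.77, and 0 of either were higher. Epithelial markers, with 1 of 3 lower, overlapped between genotypes at 0.79 to 2.10 against 1.08 to 1.57. Matn1, Erbb3 and Epcam, defining markers of cartilage, Schwann cells and epithelium, were not well above background on the 6 arrays. The part of these cells in the lower members was not tested.

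The 4 inhibitors were measured on all arrays, and 1 of them, Timp1, passed the threshold, against 18.7% of all genes. Timp1, the cytokine-inducible inhibitor, lies on chromosome X (20451802 to 20451861 of mm9, plus strand) and read 4.82, 4.91 and 4.68 on the Nod1 +/- arrays and 2.91, 2.97 and 2.75 on the Nod1 -/- arrays. The spread within either genotype was small beside the gap between them. The difference was 1.92 (SE 0.11), or 3.79-fold (adjusted p = 0.000732), and it held in all 19 alternative analyses, at 1.86 to 2.05.

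Timp2, which both blocks Mmp2 and helps Mmp14 to activate it, read 6.31, 6.38 and 6.56 against 6.63, 6.64 and 6.88. Timp3, the inhibitor bound to the matrix that also blocks ADAM and ADAMTS enzymes, read 3.32, 3.42 and 3.40 against 3.55, 3.73 and 3.64. Timp4, which is made mainly in heart and vessels, read 2.46, 2.50 and 2.14 against 2.76, 2.90 and 2.70. In all of them the Nod1 +/- arrays were the lower ones and did not overlap with the Nod1 -/- arrays, which was the case for 26.1% of all genes. The differences were -0.30 (SE 0.12; adjusted p = 0.135), -0.26 (SE 0.10; adjusted p = 0.109) and -0.42 (SE 0.13; adjusted p = 0.0737), so 0 of the 3 passed.

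**Figure D4:**
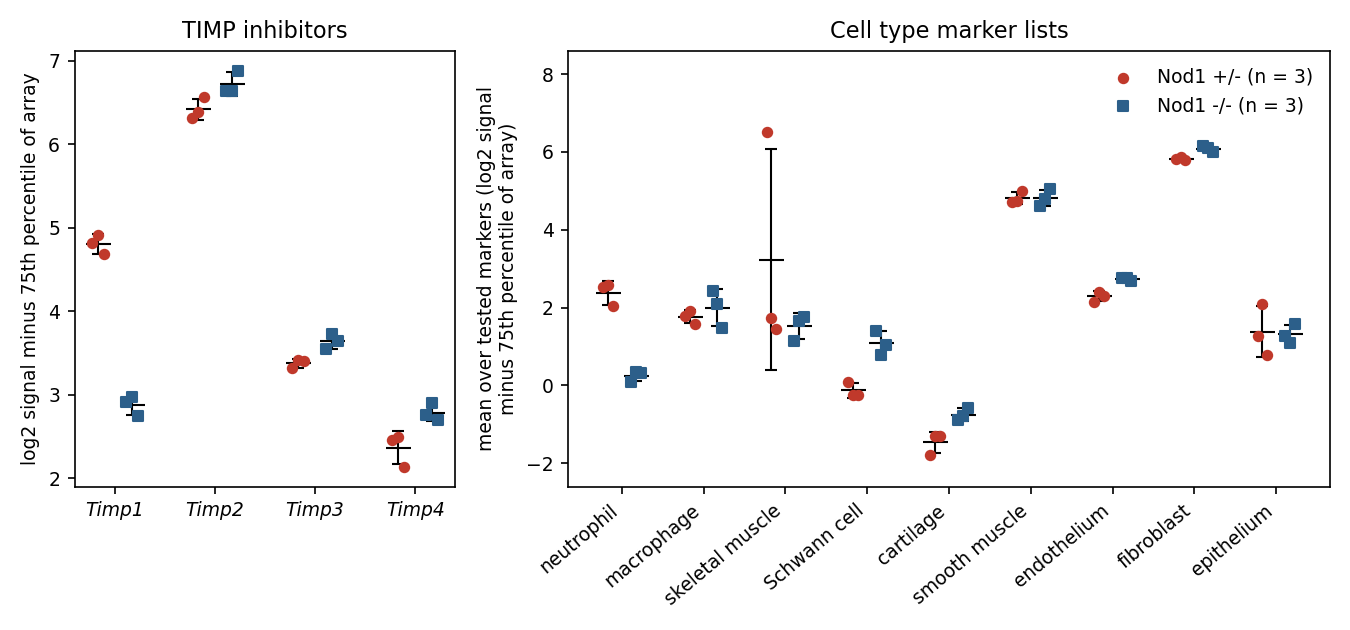
Left, level of the 4 Timp genes on each array (log2 signal minus the array's 75th percentile); right, mean level of each cell type's tested markers on each array, with points for arrays and bars for the mean ± SD of 3 arrays. Timp1 and the neutrophil markers are higher in Nod1 +/-, Timp2, Timp3 and Timp4 lie slightly lower without passing the threshold, and the skeletal-muscle mean stands at 6.51 on Nod1 +/- replicate 1.

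Plasmin and the convertases activate Mmp precursors. Of 11 genes of plasminogen activation and of the proprotein convertases, 4 were higher and 2 lower, against 7.66% and 11.0% of all genes. Serpinb2, a serpin that inhibits urokinase, was well above background on the Nod1 +/- arrays alone. It entered the test through them and had to differ, so it adds no support to the count; its bound was at least 4.86-fold in favour of Nod1 +/- (adjusted p = 0.00248). The urokinase receptor Plaur was higher by 1.44 (adjusted p = 0.00583) and urokinase itself, Plau, by 1.03 (adjusted p = 0.00732). The convertase Pcsk5 was lower (-0.91; adjusted p = 0.00348), as was Pcsk6 (-0.43; adjusted p = 0.0315), while Furin did not pass (0.40; adjusted p = 0.167).

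Over all genes tested, 18.7% were called. The lists that follow had 2 of 8, 2 of 11, 1 of 4 and 0 of 7 tested genes called. Of 8 tested genes for other inhibitors, docking and clearance, Thbs1, a thrombospondin that binds Mmp2 and Mmp9, was higher by 1.63 (adjusted p = 0.00111). Reck, a membrane-anchored inhibitor of several Mmp enzymes, was lower by a small amount (-0.52; adjusted p = 0.0478). Among 11 tested ADAM proteases, the membrane-bound relatives, Adam8 of leukocytes was 9.07-fold higher (3.18, SE 0.11; adjusted p = 0.000243) and Adam22 lower (-0.69; adjusted p = 0.0180). The sheddases Adam10 and Adam17 did not pass, at -0.03 and -0.26. Of 4 tested astacin proteases and procollagen enhancers, Pcolce2 was lower (-0.82; adjusted p = 0.0160), and of 7 other matrix-degrading proteases (cathepsins and Elane) 0 changed, the smallest p being that of Ctsl (-0.36; adjusted p = 0.0538).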

How the data were processed

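The deposited scanner files hold each spot's intensity on a linear scale, corrected for background by Agilent Feature Extraction. Its version is 10.7.1.1 per the file headers but 9.5.1.1 in the submitters' processing notes. Probe positions are those of mm9, and the 6 arrays shared 1 slide and 1 scan time, per the file headers. Nod1 -/- replicates 1 and 2 lay in slide row 1 and the other 4 arrays in row 2. The authors' deposited intensity values for the whole series (column medians 33.4, scaling step not stated, 0 columns without a sample) served as an alternative.

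Control and outlier-flagged spots were left out, and 0 spots were saturated. Signals were taken to log2, spots of a probe averaged, and the array's 75th percentile subtracted. Probes well above background on at least 3 of 6 arrays were kept (30166 probes), and a gene took the kept probe of highest mean (21478 genes). Genotypes were compared with limma 3.58.1 in R 4.3.3 (data.table package, version 1.17.8), with Benjamini-Hochberg adjustment over all genes; a second probe's p was adjusted over all kept probes. The bound of a dim gene ("at least N-fold") divides the bright genotype's mean by that of the dim one, after raising each dim array to its lowest signal well above background where the probe lay under it. Arrays of the bright genotype entered as read. For Mmp13 and Mmp25, which were dim on some of those too, the value is not a firm lower limit. In 5 simulated runs over the 21478 genes of this comparison, differences of 0.5, 1 and 2 were recovered in 2.69%, 44.8% and 80.6% of genes, with 2 to 5 false calls a run. Over all 5 runs, 335, 335 and 330 genes were given these differences, with independent noise. That is a far smaller share than the 18.7% of genes called in the data. The simulated rates therefore cannot be carried over to this comparison. The number of arrays limits the precision.

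Members and lists were chosen with earlier results of these data known. Values by array were given for members that passed, those whose genotypes did not overlap, the Timp genes, Mmp2 and Mmp9, and bounds for members dim in 1 genotype where the genotypes did not overlap. From each pathway list up to 4 changed genes with the smallest p were named, or the gene with the smallest p; Plau, Pcsk6, Furin, Adam10, Adam17 and Comp, members without overlap or bound, and marker genes are additions made after their values were seen. The result of 1 further gene that this rule takes is not reported here. Plots used matplotlib 3.10.9.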

Additional observations from a re-analysis of the deposited data

How the results depend on the processing

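Each alternative was fitted over all genes it tested, and differences were followed for the members that passed, those without overlap, and Mmp2. These differences kept their sign throughout. Many alternatives held each gene to the probe of the main fit. They could not show a change of direction between probes, as seen for Adamts5. Differences of other genes were not followed, apart from those of untested members in the fit without a filter. The count of higher members, 6, stayed between 4 and 7, and that of lower members, 4, between 1 and 6. The lower count was 2 when dim probes were kept, 2 with the mean of a gene's probes, 2 at a 2-fold minimum and 1 without the first replicate of both genotypes, where Adamts18 remained; leaving out 1 array gave 2 to 4, with 2 without Nod1 +/- replicate 1 or any 1 of the Nod1 -/- arrays. Mmp8, Mmp3 and Timp1 passed in all 19 alternatives, and Adamts18 in the 18 that tested it. Mmp9 also passed in the 18 that tested it. Apart from the fit without a filter on dim probes, these kept Mmp9 through the Nod1 +/- arrays alone. Its passing there was fixed in advance and adds no support. Sizes shrank with normexp background correction, for Mmp9 from 3.68 to 1.41 and for Mmp8 from 3.16 to 2.05. Mmp3 went from 1.32 to 0.78, Adamts18 from -2.33 to -1.25 and Timp1 from 1.92 to 1.89. Without both first replicates Adamtsl1 (adjusted p = 0.0764) and Adamts7 (0.0930) also missed the threshold. Without a filter on dim probes Adamts5, Adamts8 and Adamts16 missed it (0.0697, 0.0937 and 0.0931), while Mmp13 and Mmp25 were added. Median scaling moved the median of all genes from -0.10 to 0.01 and the calls over all genes from 1646 higher and 2366 lower to 1580 and 926, with 7 and 4 members. Mmp23, Adamts15 and Timp4 passed in 5, 7 and 3 alternatives, and Adamts17 with the slide row as a block (adjusted p = 0.0453), which left 4 higher and 3 lower members and 4.81% of all genes called. Replicate numbers were not taken to pair the arrays. The deviations of same-numbered arrays correlated at 0.08, 0.28 and 0.11. Nod1 +/- replicates 1 and 2 each correlated best with the same-numbered Nod1 -/- array. Nod1 +/- replicate 3 correlated best with Nod1 -/- replicate 1 (0.13). These values do not settle whether the arrays were paired. The replicate number as a block gave 7 higher and 3 lower members, with Adamts15 gained (adjusted p = 0.0478) and Adamts16 lost (0.0586). Dim signal kept 16 members from being tested, 10 of them on every array.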
